A study of Mus musculus with 3 samples.

Results

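The genes described here are 35 genes of the endoplasmic reticulum (ER) protein-folding machinery and of the unfolded protein response, chosen by gene symbol from the 32285 genes that the files list. All 35 symbols were found in each of 3 single-cell RNA libraries of mouse bone marrow. Both fusion libraries are labelled with the genotype Ep300-Znf384-V5-HA and the third as wild type, all male and 6 weeks old. In the fusion, the histone acetyltransferase gene Ep300 is joined to the zinc finger gene Znf384 with V5 and HA tags. Each library held sorted live marrow cells pooled with an equal number of live lineage-negative cells, taken from femur and tibia after lysis of red cells, so all 3 are enriched for progenitors and the shares of cells are set in part by that pooling. The labels name no promoter or cell type that limits the fusion allele, and they do not say how many animals a library holds. The question was how each gene group stood in each marrow cell type, and how it differed between fusion and wild type.

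Proteins that are secreted, placed in membranes or stored in granules are folded in the ER by chaperones such as the Hsp70 protein BiP (gene Hspa5), by the lectins calnexin and calreticulin, and by disulfide isomerases. When unfolded proteins build up, the sensors IRE1 (Ern1), PERK and ATF6 start the unfolded protein response: IRE1 splices the mRNA of Xbp1, PERK raises translation of ATF4, and ATF6 is cut into a transcription factor. XBP1 and ATF6 raise chaperones and ER-associated degradation, while ATF4 raises amino acid synthesis genes such as Asns. In marrow the response is best known from plasma cells, which need XBP1, and from granule-making cells.

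Counts were kept for 7313 and 6895 cells of fusion replicates 1 and 2 and for 7431 wild-type cells, with medians of 7360, 10008 and 7430 unique molecular identifiers (UMIs) per cell. Between 9 and 17 kept cell barcodes were shared by any pair of libraries. The cells were clustered without the 35 genes and without the related lists, and 25 clusters were joined into 14 classes by marker genes, so a class name stands for cells that resemble a type. Both clusters of the class called unnamed below were led by Apoe, Muc13 and Meis1, and it scored highest for erythroid progenitor markers. Mature neutrophils of the fusion libraries lay almost wholly in clusters 6, 7 and 14 and those of the wild type in clusters 10 and 22, so values in that class compare different clusters. Over all cells Ep300 was at 69.2 and 53.0 CPM (counts scaled to the library's total) in fusion replicates 1 and 2 against 85.9 in wild type, and Zfp384, the mouse Znf384 gene, was at 26.5 and 19.5 against 15.6. Since these are 3′-end counts, neither value measures the fusion transcript itself.

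Some promoters of the 35 genes hold the DNA letters through which XBP1 and ATF6 are known to act, and these are shown here as a feature that was not read from RNA levels. The RefSeq promoter table (GRCm38.p6, 250 bases before to 50 after each start) held 31 of the 35 genes; Hyou1, Manf, Derl1 and Atf6 are named only. The ER stress response element (CCAAT, 9 free bases, CCACG, on either strand) was found in 9 of the 31 genes (29.0%) and in 37 of 27025 genes in the table (0.137%). Those 9 are Hspa5, Hsp90b1, Dnajc3, Creld2, Calr, Canx, Pdia6, Syvn1 and Derl3. The motif was picked for its known link to genes of this kind, so the shares are a description and not a test. In the stretches below, written 5′ to 3′ on the gene's strand with 12 bases on each side, capitals mark the fixed letters of the motif, and CGTGG with ATTGG is the same motif read on the other strand.
Hspa5: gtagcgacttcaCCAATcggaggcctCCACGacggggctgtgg
Hsp90b1, far copy: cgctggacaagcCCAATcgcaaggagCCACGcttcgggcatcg
Hsp90b1, near copy: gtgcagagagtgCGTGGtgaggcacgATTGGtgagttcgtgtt
Creld2: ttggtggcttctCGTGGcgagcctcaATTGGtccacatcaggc
Calr: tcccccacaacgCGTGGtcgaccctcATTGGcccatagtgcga
Pdia6: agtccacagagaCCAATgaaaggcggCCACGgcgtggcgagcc
Dnajc3: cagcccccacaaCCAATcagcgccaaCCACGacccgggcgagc
Derl3: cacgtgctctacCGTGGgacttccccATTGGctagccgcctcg
The first base of the match lay 65 bases before the start in Hspa5 (chr2:34772013-34772055, plus strand), and 212 and 107 bases before it in Hsp90b1 (chr10:86705626-86705668 and chr10:86705521-86705563, minus strand). The other stretches are at chr15:88819508-88819550 (Creld2, plus), chr8:84847063-84847105 (Calr, minus), chr12:17266479-17266521 (Pdia6, plus), chr14:118937815-118937857 (Dnajc3, plus) and chr10:75893230-75893272 (Derl3, plus).

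Other motifs separated other members. The second ER stress element (ATTGG, 1 free base, CCACG, on either strand) was found in Herpud1 and, after the start, in Dnajb11, that is 2 of 31 genes (6.45%) against 0.0444% of genes in the table. The C/EBP-ATF response element, TGATGNAAN, to which ATF4 is known to bind, was found in Asns, Chac1, Herpud1 and, after the start, in Trib3, 4 of 31 genes (12.9%) against 4.50% of genes in the table. The element TGACGTGG was found in 0 of the 31 genes and in 0.714% of genes in the table. No match of one motif overlapped a match of another in these genes, and a match is a run of letters, not a measured binding site. The stretches shown are the second element of Herpud1 and the C/EBP-ATF element of the ATF4 targets called below, with capitals as before; in Chac1 it is read on the other strand.
Herpud1: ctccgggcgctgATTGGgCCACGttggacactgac
Asns: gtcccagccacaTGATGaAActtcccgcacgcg
Chac1: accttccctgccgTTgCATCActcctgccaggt
They lie at chr8:94386365-94386399 (Herpud1, plus strand), chr6:7693212-7693244 (Asns, minus strand) and chr2:119351036-119351068 (Chac1, plus strand).

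ER chaperone genes were highest in basophils, granulocyte-monocyte progenitors and megakaryocytes and lowest in neutrophils. Levels between classes are compared here in plain CPM, a gene's UMIs scaled to all UMIs of the class, in which gene length plays no part because each molecule is counted once at its 3′ end. In the wild-type library Hspa5 (chromosome 2, 34771970 to 34777547, GENCODE M21 on GRCm38), the central chaperone of the ER, was at 1678 plain CPM in basophils, 1227 in megakaryocytes and 1092 in granulocyte-monocyte progenitors. It was at 145 in mature and 179 in immature neutrophils. In fusion replicate 1 the same 3 upper classes were at 1143, 1054 and 844, and in fusion replicate 2 at 1105, 978 and 765. The upper classes therefore lay above every other class in all 3 libraries, while basophils and megakaryocytes differed by less within a fusion library than either did from its wild-type level. Immature neutrophils changed their place: they were next to lowest in wild type at 179, and in fusion they stood at 520 and 402, among the middle classes.

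Across the 35 genes, basophils held the highest plain CPM for 12 genes in wild type and for 14 and 13 in fusion replicates 1 and 2. Mature neutrophils held the lowest for 16, 17 and 17. Calr, the lectin chaperone calreticulin, was highest in granulocyte-monocyte progenitors in wild type (1943) and in fusion replicate 1 (1783), and in basophils in fusion replicate 2 (1812). Os9, which passes misfolded glycoproteins to degradation, stood out in basophils, at 347 and 295 plain CPM in fusion and 373 in wild type, against 161 or less in any other class. Each gene's pattern by class is drawn for the wild type in the map of levels.

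**Figure D1:**
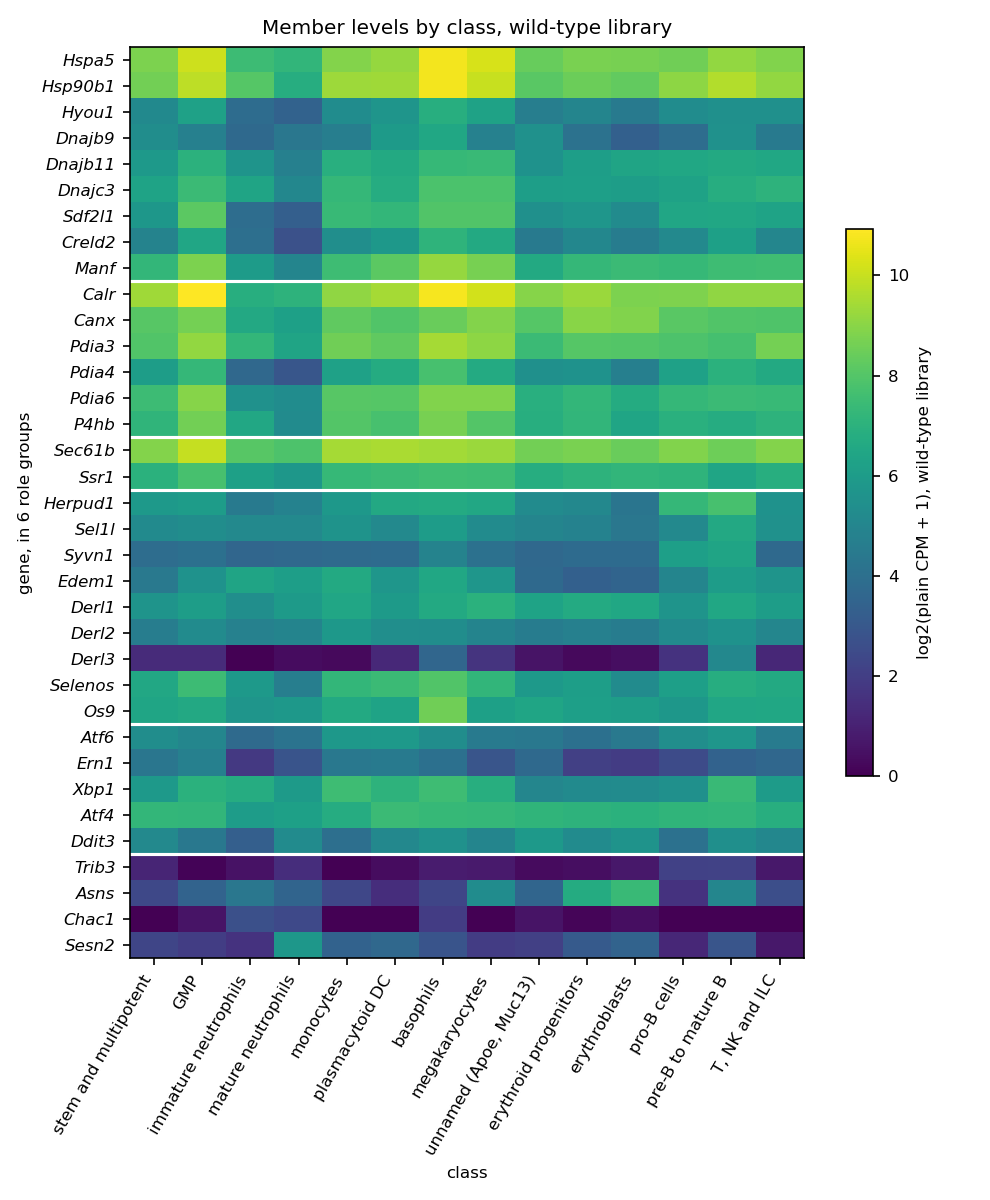
Levels of the 35 genes in 14 cell classes of the wild-type library, as log2 of plain CPM plus 1; rows are genes in 6 role groups (chaperones; lectins and disulfide isomerases; translocation; degradation; sensors and factors; ATF4 targets), separated by white lines. Hspa5, Hsp90b1 and Calr are brightest in basophils, granulocyte-monocyte progenitors (GMP) and megakaryocytes, and most chaperone rows are darkest in the 2 neutrophil columns.

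The degradation and ATF4 genes had patterns of their own. Syvn1, the ubiquitin ligase of ER-associated degradation, was at 71.3 plain CPM in pro-B and 82.2 in pre-B to mature B cells of the wild type and at 28.8 or less elsewhere. Herpud1, which assembles that ligase complex, was also highest in pre-B to mature B cells (150, 160 and 214 plain CPM in fusion replicates 1 and 2 and wild type). Asns, asparagine synthetase, was highest in erythroblasts (168, 142 and 167) and erythroid progenitors (129, 117 and 105). Sesn2, a stress-induced regulator of growth signalling, was highest in mature neutrophils (49.0, 44.6 and 54.9), and 17.5 or less in every other class and library. Chac1, which degrades glutathione, was seen mainly in neutrophils and basophils, and Trib3, a pseudokinase that restrains ATF4 signalling, stayed at 4.30 or less.

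Outside the 35 genes, the 5 whose plain CPM followed Hspa5 most closely over the 14 classes were Ssr3, Sec61a1, Mgat2, Spcs2 and Tmed2. Their Pearson correlations, on log2 of CPM plus 1 and averaged over the 3 libraries, ran from 0.873 for Ssr3 to 0.824 for Tmed2 among 6319 genes ranked. Ssr3 and Sec61a1 serve the translocon that brings proteins into the ER, and Spcs2 is a subunit of the signal peptidase. All 14 points of a library share its cells and depth, so these values are a description.

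For each class, counts were summed per library and fusion was compared with wild type by edgeR's quasi-likelihood test with Benjamini-Hochberg adjustment over all genes tested in the class, called at an adjusted p below 0.05. CPM values from here on use TMM effective library sizes, and a log2 fold change above 0 means more in fusion, given with its standard error (SE). With 2 libraries against 1 there was 1 residual degree of freedom, which came from the 2 fusion libraries. Genotype cannot be told apart from the single wild-type library. The p-values thus rest on the spread between the fusion libraries, which edgeR shares in part across all genes of a class. That spread may be technical, and the p-values hold no measure of wild-type spread. An exact two-sided permutation test over the 3 possible labellings cannot go below p = 0.333. Over all classes 18 of 445 member and class pairs were called, 10 higher and 8 lower in fusion, where 1.63% of all gene and class pairs were called. The median log2 fold change of all genes tested in a class ran from 0.0003 to 0.0129.

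**Figure D2:**
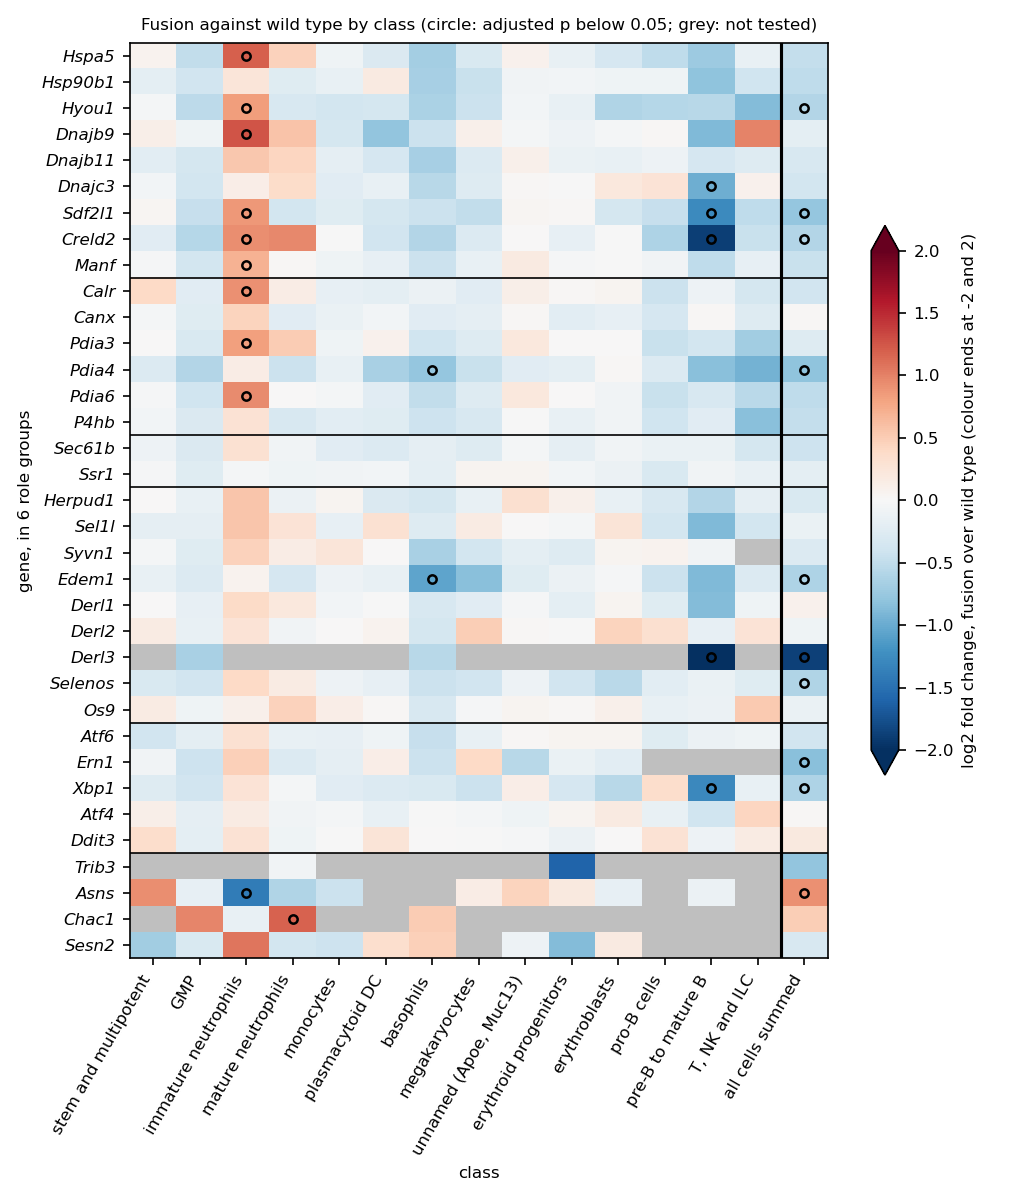
Log2 fold change, fusion over wild type, of each gene (rows, 6 role groups) in each class and in the sum of all cells (last column), from red (higher in fusion) to blue (lower); circles mark adjusted p below 0.05 and grey cells were not tested. The column of immature neutrophils holds 9 circles on red and 1 on blue, and the column of granulocyte-monocyte progenitors (GMP) is pale blue with 0 circles.

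Immature neutrophils of the fusion libraries had more ER chaperone RNA than those of the wild type. Of 33 genes tested, 9 rose and 1 fell, against 1.35% of all genes tested there called higher and 1.21% called lower. Those that rose were 6 of 9 chaperones and cofactors and 3 of 6 lectins and disulfide isomerases, and the 1 that fell was Asns. Both fusion libraries lay above the wild type for 29 of the 33, where 37.5% of all genes did so, and the median log2 fold change of the 33 was 0.40. By role, the median was 0.84 for 9 chaperones, 0.63 for 6 lectins and disulfide isomerases, 0.40 for 8 degradation genes, 0.29 for 5 sensors and factors and 0.14 for 2 translocation genes. Genes tested had passed the filter on low counts, and Derl3 and Trib3 had not.

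Hspa5 was at 461 and 424 CPM in fusion replicates 1 and 2 and at 192 in wild type, so both fusion values lay far above it and close to each other. Its log2 fold change was 1.20 (SE 0.18, adjusted p = 0.000286, edgeR). Dnajb9, a BiP cochaperone that is itself a target of XBP1, was at 33.5 and 28.4 against 13.02 CPM, a log2 fold change of 1.25 (SE 0.23, adjusted p = 0.00224, edgeR). Creld2 and Sdf2l1, which are small ER proteins of the chaperone network, were at 29.7 and 32.0 against 16.2 CPM and at 29.3 and 26.0 against 15.2. Hyou1, an ER chaperone and exchange factor for BiP, was at 24.9 and 27.0 against 14.5 CPM, and Manf, a secreted protein that binds BiP, at 117 and 104 against 68.5. In each of these the fusion libraries lay close together and apart from the wild type, with log2 fold changes of 0.93, 0.86, 0.84 and 0.69 in the order named and adjusted p of 0.0186, 0.0384, 0.0469 and 0.0362 (edgeR).

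Among the lectin and disulfide genes, Calr was at 234 and 231 CPM in fusion and 123 in wild type (log2 fold change 0.92, adjusted p = 0.00288, edgeR). Pdia3, the isomerase that works with calreticulin and calnexin, was at 295 and 277 against 162 CPM (0.82, adjusted p = 0.00832, edgeR). Pdia6, another isomerase, was at 93.9 and 93.7 against 48.7 CPM (0.94, adjusted p = 0.00289, edgeR). Members without a call follow. Canx, the lectin calnexin, was at 145 and 135 against 103 CPM (0.44, adjusted p = 0.222). Hsp90b1, the abundant ER Hsp90, was at 332 and 344 against 286 CPM with a log2 fold change of 0.24 (SE 0.17, adjusted p = 0.584, edgeR). Pdia4 was at 12.3 and 16.2 against 12.8 CPM, with the wild type between the fusion libraries, and so it was for Ssr1 of the translocon at 80.1 and 74.1 against 79.1. Sec61b of the translocon (341 and 391 against 295 CPM) and the degradation genes Selenos (80.8 and 89.2 against 64.4) and Os9 (61.0 and 56.7 against 54.8) lay above the wild type in both fusion libraries without a call.

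**Figure D3:**
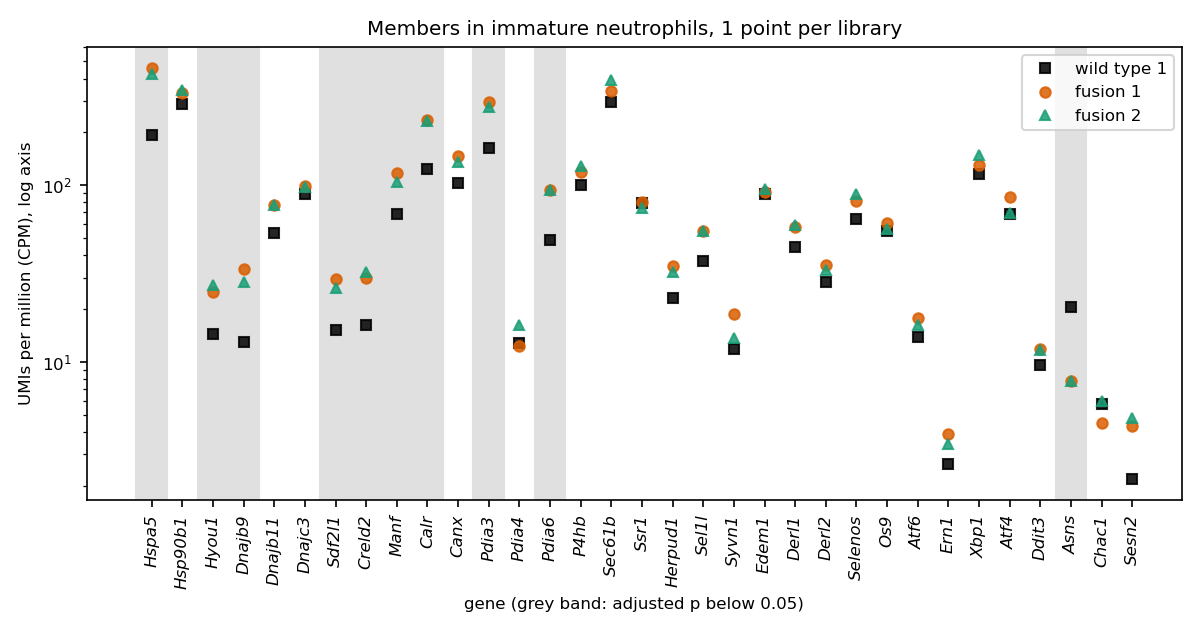
CPM (log axis) of the 33 genes tested in immature neutrophils, 1 point per library; grey bands mark adjusted p below 0.05. For Hspa5 both fusion points (461 and 424) lie above the wild-type square (192), and for Asns both (7.81 and 7.75) lie below it (20.5).

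The sensors and factors moved less in immature neutrophils. Xbp1 was at 130 and 149 CPM against 115 (log2 fold change 0.27, adjusted p = 0.523, edgeR), Atf4 at 85.3 and 69.3 against 69.0, and Ddit3, the factor CHOP, at 11.9 and 11.7 against 9.65. Ern1 and Atf6 were also above the wild type in both fusion libraries without a call. Gene counts at the 3′ end do not separate spliced from unspliced Xbp1. Among ATF4 targets, Asns (chromosome 6, 7675169 to 7693254) was at 7.81 and 7.75 CPM against 20.5, a log2 fold change of -1.39 (SE 0.25, adjusted p = 0.00204, edgeR), while Sesn2 was at 4.36 and 4.82 against 2.17 (1.07, adjusted p = 0.394).

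In a related list of 17 other ATF4 targets, 10 were tested in immature neutrophils, 2 rose and 0 fell, with a median of 0.13. Both of those called carry cystine into the cell as one transporter: Slc3a2 was at 147 and 121 CPM against 50.7 (log2 fold change 1.40, adjusted p = 7.5e-05, edgeR) and Slc7a11 at 28.4 and 25.7 against 7.96 (1.76, adjusted p = 0.000181). So genes that ATF4 is known to drive stood on both sides of the wild type in the same cells. Of 19 other translocation and glycosylation genes, 1 rose, Ostc of the oligosaccharyltransferase (99.9 and 93.2 against 60.5 CPM, 0.67, adjusted p = 0.0413, edgeR), with a median of 0.19 over the 19. Of 14 other folding genes tested, 0 were called and 4 had an unadjusted p below 0.05, with a median of 0.24. Among 9 cytosolic heat shock genes tested 0 were called and 1 had an unadjusted p below 0.05, and their median was 0.01. Of 13 immediate early genes, which respond fast to stimuli and to cell handling, 7 were above the wild type in both fusion libraries and 5 below in both. Their median was 0.47, 7 had an unadjusted p below 0.05, and the lowest adjusted p was 0.0895 (edgeR). Their part in the differences of this class was not tested.

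The class holds 2 clusters with unequal shares. In cluster 8 (led by Ltf and Ngp; 511 and 434 fusion and 237 wild-type cells), 4 of 33 genes were called higher and the median was 0.49, and Hspa5 gave 1.16 (SE 0.19, adjusted p = 0.0175, edgeR). There 0.528% of all genes were called higher. In cluster 17 (led by Chil3 and Camp; 245, 199 and 201 cells) the 1 member called was Asns, lower (-1.78, adjusted p = 0.000226), where 1.47% of all genes were called lower, and Hspa5 gave 0.74 (SE 0.22, adjusted p = 0.0518, edgeR), with a median of 0.21. These cluster fits were added after the class values were known. The border with mature neutrophils also moved with the clustering. Cluster 10, named mature (7 and 23 fusion and 843 wild-type cells), scored 1.486 for immature and 1.247 for mature neutrophil markers. At Leiden resolution 2 a cluster of 9 and 23 fusion and 724 wild-type cells was named immature. With doublets kept, so was a cluster of 8 and 28 fusion and 748 wild-type cells. Summed markers of mature neutrophils in the class stood at 5308 and 4865 plain CPM in fusion and at 1424 in wild type, with none of the 8 markers at 0, and those of granulocyte-monocyte progenitors at 310 and 259 against 395, with none of the 6 at 0. Their part in these differences was not tested. In mature neutrophils Hspa5 was at 247 and 189 plain CPM in fusion and 145 in wild type, lower than in the immature class of each library. The mature cells lie in different clusters by genotype, and whether maturity bears on Hspa5 within the immature class was not tested.

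Per cell, after thinning each cell to 2000 UMIs, a UMI of Hspa5 was seen in 56.5% and 51.0% of fusion immature neutrophils (734 and 621 cells; exact 95% intervals 52.9 to 60.2 and 47.0 to 55.0) and in 27.0% of 418 wild-type cells (22.8 to 31.6). These intervals cover counting error only. In mature neutrophils, the class with the lowest Hspa5, the shares were 29.2%, 25.4% and 22.1% at median depths of 2393, 3206 and 3154 UMIs. Before thinning the immature shares were 89.2%, 88.6% and 71.7%, at median depths of 6619 and 8388 UMIs in fusion and 9230 in wild type. The wild-type cells, with the lower shares, were thus the deeper ones. The summed UMIs of the 9 chaperone genes per thinned cell had a median of 4 and 3 in fusion and 2 in wild type, and the lower and upper quartiles were 2 and 7, 2 and 6, and 1 and 3. Cells with no chaperone UMI made up 3.95% and 6.12% of fusion and 13.4% of wild-type cells.

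DESeq2 called 1 of the 10 in this class, Hspa5, and 2 to 3 were called when the members were kept in the clustering, when genes called between genotypes were left out of it and when doublets were kept. Hspa5 was called in each of the 12 settings that gave a test, with log2 fold changes from 0.96 to 1.34, and Asns in 11 of them, all but DESeq2. The other genes called in this class held their calls less often. Dnajb9 was called in 9 of the 12, Creld2, Calr, Pdia3 and Pdia6 in 8, Manf in 6, Sdf2l1 in 5 and Hyou1 in 4. Their signs held throughout, with a lowest log2 fold change of 0.21 for Sdf2l1.

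Granulocyte-monocyte progenitors showed the opposite tilt without a call. Of 34 genes tested 33 had a log2 fold change below 0, where 49.4% of all genes did, and 31 were below the wild type in both fusion libraries, where 33.7% of all genes were. The median was -0.29. By edgeR 0 were called (0.253% of all genes were), 9 had an unadjusted p below 0.05, and DESeq2 called 0. Hspa5 was at 803 and 789 CPM against 1115 (log2 fold change -0.49, SE 0.18, adjusted p = 0.551, edgeR), and Pdia4, the gene with the next to smallest p, at 95.5 and 112 against 156 (-0.59, SE 0.16, adjusted p = 0.323). Chac1 was the exception, at 0.94 and 1.09 against 0.52 CPM. With no filter on low counts 3 were called lower, given here without the share of all genes called in that setting. All 3 clusters of the class had negative medians, from -0.26 to -0.41, and 1 gene was called in them, Asns lower in cluster 9 (led by Fcnb and Elane; -1.33, adjusted p = 0.0402, edgeR), where 0.358% of all genes were called lower. Beside this, summed markers of immature neutrophils in the class were at 14680 and 9456 plain CPM in fusion and 6996 in wild type, with none of 7 at 0, and the early response genes Fos and Fosb fell (log2 fold changes -1.36 and -1.87, adjusted p = 0.0334 and 0.0362, edgeR). The part of either in the tilt was not tested.

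The difference between both classes was itself tested, as the interaction of genotype and class with the library as a block, in a comparison added after the class values were seen. Of 34 genes 21 were called, 20 of them with a higher fold change in immature neutrophils, where 3.53% of all 11880 genes were called. Hspa5 differed by 1.68 on the log2 scale (SE 0.11), Creld2 by 1.50, Hyou1 by 1.35, Pdia6 by 1.34 and Dnajb9 by 1.33, with adjusted p from 6.97e-52 to 7.91e-06 (edgeR). Asns was the 1 gene that differed the other way, by -1.24 (SE 0.30, adjusted p = 0.00218). The 6 sums came from only 3 libraries, and the model with the block left 1 residual degree of freedom. The very small p-values thus lean on variance that edgeR shares across all genes, and their size should not be read as strength of replication. With no library block 0 of the 34 were called, so these calls rest on the block. Here too the p-values hold no measure of spread among wild-type libraries.

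In mature neutrophils members lay on both sides of the wild type: of 34 genes tested 1 rose and 0 fell, where 2.34% and 3.52% of all genes did, and the median was -0.07. The 1 that rose was Chac1 (chromosome 2, 119351229 to 119354381), at 10.2 and 10.2 CPM against 4.51 from 30 wild-type UMIs, a log2 fold change of 1.17 (SE 0.33, adjusted p = 0.0466, edgeR), and it was called in 6 of 12 other settings. The fusion and wild-type cells of this class lay in different clusters, as said above. Hspa5 was at 222 and 199 against 154 CPM (0.45, SE 0.20, adjusted p = 0.242, edgeR). Of 11 other ATF4 targets tested 1 rose, Slc3a2, at 203 and 147 against 50.8 CPM (1.79, adjusted p = 0.000103, edgeR). Nploc4, a cofactor that extracts proteins for degradation, rose (28.4 and 29.0 against 12.5 CPM, adjusted p = 0.00411), and Atf3, a stress-induced factor, fell (0.87 and 0.33 against 3.76 CPM, adjusted p = 0.0371). Of 13 immediate early genes 1 rose, Jun (164 and 187 against 96.7 CPM, log2 fold change 0.86, adjusted p = 0.0138, edgeR).

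The same interaction test set mature neutrophils, whose fusion and wild-type cells lie in different clusters, against 2 progenitor classes. Against granulocyte-monocyte progenitors, 5 of 35 genes were called with the library block, where 3.61% of all genes were: Creld2 by 1.57, Hspa5 by 0.97, Pdia3 by 0.85, Dnajb11 by 0.81 and Dnajc3 by 0.75, all with the higher fold change in mature neutrophils (adjusted p 6.57e-05 to 0.0394, edgeR). Against erythroid progenitors 2 of 34 were called, a share near the 4.07% of all genes: Creld2 by 1.04 and Asns by -0.90. With no library block 0 were called in either pair.

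Basophils, the class with the highest Hspa5 in summed UMIs, had lower summed values in fusion. Of 33 genes tested 2 fell and 0 rose, where 2.68% of all genes were called lower, and 27 were below the wild type in both fusion libraries, where 36.7% of all genes were. The median was -0.42, and -0.59 for the 9 chaperones. Edem1, which directs misfolded glycoproteins to degradation, was at 41.6 and 49.1 CPM against 94.8 (log2 fold change -1.05, SE 0.17, adjusted p = 0.0134, edgeR). Pdia4 was at 127 and 137 against 227 CPM (-0.78, SE 0.17, adjusted p = 0.0437, edgeR). Hspa5, at 1088 and 1113 against 1772 CPM, was not called (-0.69, SE 0.19, adjusted p = 0.0952). Among 14 genes the unadjusted p was below 0.05, and DESeq2 called 0. Per basophil thinned to 2000 UMIs, the 9 chaperone genes had a median of 7 and 8 UMIs in fusion and 7 in wild type. The upper quartiles were 13 and 17 against 19, so the median cell of the whole class did not show the fall of the sums. The class joins 2 clusters in unequal parts by genotype, as given below. Values per cell within a cluster are not given here, so like cells were not compared in this way. The wild-type median was higher in granulocyte-monocyte progenitors (12) and megakaryocytes (10).

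The basophil class also holds 2 clusters. In cluster 16 (led by Mcpt8, Prss34 and Cpa3; 142, 209 and 265 cells) 10 of 33 genes were called lower, where 3.54% of all genes were, with a median of -0.47 and -0.93 for Hspa5 (SE 0.23, adjusted p = 0.00865, edgeR). In cluster 15 (led by Ccl3 and Ccl4; 55 and 61 fusion and 335 wild-type cells) the median of 27 genes was -0.19 and Hspa5 gave -0.46 (SE 0.25, adjusted p = 0.561, edgeR). The class sum thus joined the clusters in unequal parts. Summed basophil markers were at 26250 and 30380 plain CPM in fusion and 56990 in wild type, with none of the 7 at 0, and summed mature neutrophil markers at 654 and 633 against 1628, with none of the 8 at 0. Immediate early genes were lower as well: of 12 tested, 9 were below the wild type in both fusion libraries and 2 fell, Fosb (112 and 81.3 against 275 CPM, adjusted p = 0.00632, edgeR) and Zfp36 (157 and 154 against 352, adjusted p = 0.00784), with a median of -0.36. Whether these markers and early genes bear on the genes here was not tested. In the related list of other ATF4 targets Phgdh, the first enzyme of serine synthesis, rose (90.7 and 77.4 against 42.2 CPM, adjusted p = 0.0226, edgeR) and Ddit4, an inhibitor of mTORC1 signalling, fell (38.5 and 55.7 against 132, adjusted p = 0.00687).

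In pre-B to mature B cells 5 of 31 genes fell and 0 rose, where 0.978% of all genes were called lower, and 26 were below the wild type in both fusion libraries, where 31.7% of all genes were. In the wild-type library a few cells rich in antibody RNA held a large part of the UMIs of some of these genes, as given below. Creld2 was at 17.7 and 25.1 CPM in fusion and 79.4 in wild type (log2 fold change -1.89, SE 0.32, adjusted p = 1.03e-06, edgeR). Xbp1, the plasma cell factor, was at 46.6 and 104 against 183 CPM (-1.29, adjusted p = 0.000412), so the fusion libraries also differed from each other. Derl3, a derlin of ER-associated degradation, was at 0 and 15.1 against 36.0 CPM, from 0, 9 and 48 UMIs. Sdf2l1 (41.8 and 38.5 against 97.4 CPM) and Dnajc3, the inhibitor p58 of PERK signalling (62.7 and 60.3 against 121), completed the 5. The median of the 31 was -0.39.

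Cells with at least 1 UMI of Jchain and at least 10% of UMIs from antibody constant genes numbered 0 and 1 in fusion and 10 in wild type, and 9 of the 10 lay in this class. As a share of kept cells they made up 0% and 0.0145% in fusion (exact upper bounds 0.0504% and 0.0808%) and 0.135% in wild type (0.0646 to 0.247). In the wild type they were 2.35% of the cells of the class and 9.09% of its UMIs. Their plain CPM for Hspa5 was 2336 against 361 in the other B cells of the library, for Xbp1 1234 against 57.5, for Derl3 279 against 5.36, for Creld2 511 against 24.5 and for Hsp90b1 3590 against 516. The gated cells gave 85.4% of the class's Derl3 UMIs, 69.8% of those of Creld2 and 69.3% of those of Xbp1. A UMI of Hspa5, Creld2 and Xbp1 was found in 10 of 10 gated cells, and of Derl3 in 9. By contrast Atf4 was at 106 against 149 plain CPM, and Ddit3 at 53.1 (exact interval 22.9 to 105) against 41.4.

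Without the gated cells 0 of 30 genes tested in the B class were called by edgeR, where 0.651% of all genes were called lower, and the median moved from -0.39 to -0.02. Creld2 then gave -0.28, Sdf2l1 -0.48, Dnajc3 -0.14 and Xbp1 0.17. Sel1l, which scaffolds the degradation ligase and gave -0.88 with the gated cells, gave 0.71 without them (adjusted p = 0.612). Sel1l and Derl1 were the 2 genes with an unadjusted p below 0.05. With 1 gated cell in both fusion libraries together, the levels inside the gate could not be compared. Under the stricter cell filter a cluster named plasma cells held 5 and 5 fusion and 22 wild-type cells, so the gate may not hold all such cells.

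**Figure D4:**
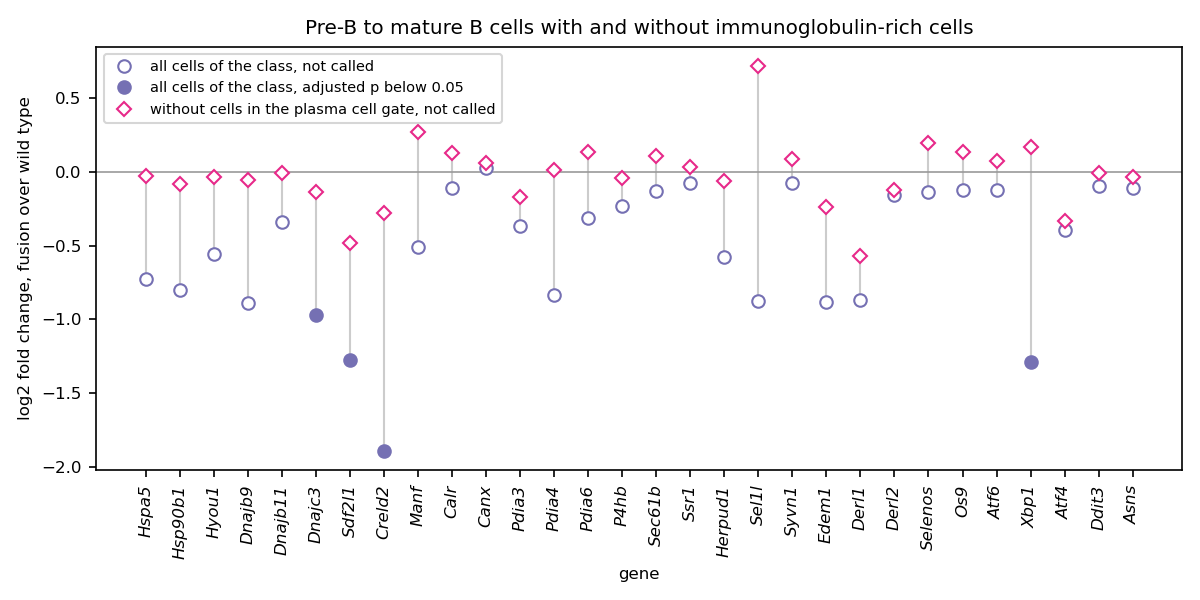
Log2 fold change, fusion over wild type, of each gene in pre-B to mature B cells with all cells of the class (circles, filled where adjusted p was below 0.05) and without the cells in the plasma cell gate (diamonds, none called). Creld2 moves from -1.89 to -0.28 and Xbp1 from -1.29 to 0.17; Derl3 was not tested without the gated cells.

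In the other 9 classes 0 members were called by edgeR or DESeq2, where edgeR called 1.07% of all gene and class pairs, and 0 to 5 members a class had an unadjusted p below 0.05 (edgeR). The medians ran from 0.01 in the unnamed class and -0.04 in stem and multipotent progenitors and in erythroblasts to -0.25 in megakaryocytes, T, NK and innate lymphoid cells and pro-B cells. In monocytes 21 of 32 genes were below the wild type in both fusion libraries and 0 above, where 34.0% of all genes were below. In erythroid progenitors Hspa5 was at 419 and 347 CPM against 422 and Asns at 125 and 119 against 106 (log2 fold change 0.20, adjusted p = 0.81, edgeR).

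The sum of all kept cells of a library, a pool enriched for progenitors, differed from the classes. There 1 of 35 genes rose and 9 fell, where 3.96% of all genes were called higher and 11.8% lower. Both fusion libraries were below the wild type for 29 of the 35, where 40.7% of all genes were. DESeq2 called 14, a count without its own share of all genes, since the shares above are those of edgeR. In such a sum fewer cells of a type and less RNA per cell cannot be told apart. Asns was at 72.2 and 62.6 CPM against 35.7 (log2 fold change 0.92, SE 0.15, adjusted p = 0.000152, edgeR). In the classes where it was tested it was called once, lower, in immature neutrophils; it was not tested in basophils, pro-B cells, plasmacytoid dendritic cells and T, NK and innate lymphoid cells. Erythroid progenitors, where Asns is high, gave 46.8% and 41.0% of all UMIs in fusion and 21.2% in wild type, and 82.5%, 77.8% and 62.1% of the Asns UMIs.

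**Figure D5:**
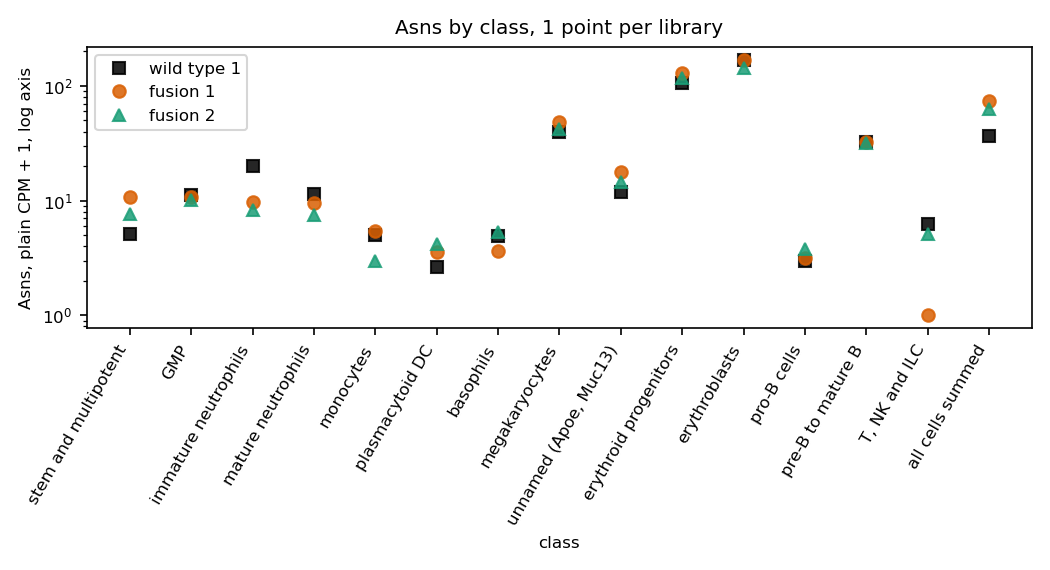
Asns in plain CPM plus 1 (log axis) by class and in the sum of all cells, 1 point per library. In erythroid progenitors and erythroblasts the 3 points nearly coincide, in immature neutrophils the wild-type square lies above both fusion points, and in the sum of all cells it lies below them (73.3 and 61.5 against 35.8 before the 1 is added).

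The 9 genes that fell in the sum of all cells were the chaperone network genes Hyou1, Sdf2l1 and Creld2, the isomerase Pdia4, the degradation genes Edem1, Derl3 and Selenos, the sensor Ern1 and the factor Xbp1. Pdia4 was at 48.0 and 53.0 CPM against 88.0 (log2 fold change -0.80, SE 0.14, adjusted p = 0.000306, edgeR), and Ern1 at 7.83 and 8.07 against 14.2 (-0.83, adjusted p = 0.000465). Sdf2l1 was at 82.0 and 79.4 against 138 CPM (-0.78), and Xbp1 at 56.4 and 63.9 against 91.9 (-0.61). The other 5 had log2 fold changes from -1.87 (Derl3) to -0.58 (Hyou1). Beside these, granulocyte-monocyte progenitors and basophils, in which most chaperones are high, made up 13.5% and 15.9% and 1.71% and 2.31% of UMIs in fusion, against 29.8% and 4.46% in wild type. Immediate early genes were also lower in the sum: 14 of 14 had a log2 fold change below 0, with a median of -0.41, and 6 fell, among them Fosb (28.6 and 18.6 against 61.2 CPM, -1.37), Fos (106 and 78.8 against 221, -1.26) and Nr4a1 (2.92 and 3.78 against 6.54, -0.96), with adjusted p from 8.83e-06 (edgeR). The part of these shares and early genes in the 9 was not tested. Of the 9, 3 (Hyou1, Sdf2l1 and Creld2) were called higher in immature neutrophils, so the sum and that class gave opposite signs for the same genes. In that class their calls held in 4, 5 and 8 of 12 other settings, in the order named.

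Genes of the related lists were also called in other classes and in B cells. Fos fell in erythroid progenitors (log2 fold change -1.03), pro-B cells (-1.50), stem and multipotent progenitors (-1.01), the unnamed class (-1.22) and pre-B to mature B cells (-1.47). Fosb fell in the same classes other than pro-B cells, and in T, NK and innate lymphoid cells (-1.08). These early genes were called lower in classes with no ER member called and also in B cells. A missing call does not show that the members of a class were unchanged, and any link between early genes and members was not tested. Egr1 also fell in erythroid progenitors (-1.24), Dusp1 in pre-B to mature B cells (-1.40) and Nr4a1 in stem and multipotent progenitors (-0.94), where Ier3 rose (1.16). All of these had adjusted p from 1.39e-05 to 0.0463 (edgeR).

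Among the other folding genes, Mzb1, a chaperone for antibody chains, was at 0 and 2.14 CPM in fusion and 56.6 in wild type in T, NK and innate lymphoid cells, from 0, 1 and 81 UMIs. Summed plasma cell markers, a list that includes Mzb1, were at 30.1 and 38.9 plain CPM there in fusion and 799 in wild type. Mzb1 also fell in stem and multipotent progenitors (4.92 and 4.37 against 12.8 CPM), where the same markers were at 27.7 and 17.7 against 63.4. Whether stray plasma cells or their RNA bear on Mzb1 was not tested. Fkbp11, a prolyl isomerase of the ER, rose in those progenitors (12.8 and 15.6 against 5.62). Sec61g of the translocon fell in pre-B to mature B cells, at 145 and 347 against 451 CPM, with the fusion libraries far apart. The factor Creb3l2 fell in erythroid progenitors (8.79 and 8.96 against 18.2 CPM), Atf3 fell in monocytes (9.49 and 15.4 against 38.2), and Phgdh rose in erythroblasts (73.7 and 80.3 against 39.8), the same direction as its call in basophils. Over all cells together Mzb1 fell (6.31 and 7.03 against 20.3 CPM), while the ATF4 targets Cth, Slc7a11 and Aldh18a1 and the ER ligase March6 rose, with log2 fold changes of 1.43, 0.48, 0.44 and 0.47.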

How the data were processed

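The submitters' processing notes name bcl2fastq 2.20.0.422, the build GRCm38 and Cell Ranger 5.0.1; the file headers name Cell Ranger 5.0.0. The authors deposited 1 matrix of unnormalized UMI counts per library, with 97192347 and 111836603 UMIs in fusion replicates 1 and 2 and 93262028 in wild type. Gene, marker and related lists, and the 35 genes themselves, were chosen with earlier results of these data known.

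Kept barcodes had a minimum of 1000 UMIs and 400 genes and a mitochondrial share of no more than 10%. Doublets were removed per library with scrublet in scanpy 1.11.5 (expected rate 0.06), which marked 225, 318 and 194 barcodes in fusion replicates 1 and 2 and wild type. Clustering used 2000 variable genes, from which the 35 genes and the related lists were left out, 30 components, 15 neighbours and Leiden resolution 1 (leidenalg 0.10.2). A cluster was named by the marker list with most genes among its 10 leading genes where at least 2 were, otherwise by mean score, from lists with at least 3 markers seen in 10% of its cells. This naming rule was set after the clusters were seen; a cluster with more leading genes from another list than from its own stayed unnamed. Each class held at least 50 cells per library.

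UMI sums per library and class passed filterByExpr and entered the quasi-likelihood test of edgeR 4.0.16 with TMM scaling in R 4.3.3. DESeq2 1.42.0 was an alternative. In simulated counts this test recovered 71% of genes changed 2-fold and 96% of those changed 4-fold in mature neutrophils (9922 genes, 7 false calls), 71% and 98% in monocytes (10108 genes, 7 false calls) and 91% and 100% in erythroid progenitors (12557 genes, 8 false calls). The simulation used a dispersion fixed in advance for every gene and library, and changed only genes above a minimum count. Its false calls therefore say nothing about the real spread of wild-type libraries. Immature neutrophils were not simulated. Genes described in full were those called in a class or in the sum of all cells and the 2 most abundant of each role group; from the related lists, up to 4 called genes a direction and class were named, by size of log2 fold change. For shares, cells under 2000 UMIs were left out and the rest thinned to 2000; in immature neutrophils 22 and 12 fusion and 20 wild-type cells were left out. Intervals are exact Clopper-Pearson or Poisson at 95%. Alternatives covered scaling, filters, cell choice, clustering, the library block and leaving out a fusion library. Proteins were not analysed here.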

Additional observations from a re-analysis of the deposited data

Results flagged for a closer look

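Each value here is a difference between classes in the log2 fold change. It comes from the interaction test of edgeR with the library as a block (Benjamini-Hochberg adjusted p below 0.05). The pair of immature neutrophils and granulocyte-monocyte progenitors was added after the class values were seen, and it uses the same counts. Its calls for the 9 genes already called higher in immature neutrophils are therefore not findings separate from the class values. Immature neutrophils minus granulocyte-monocyte progenitors gave 1.68 for Hspa5, 1.50 for Creld2, 1.35 for Hyou1, 1.34 for Pdia6, 1.33 for Dnajb9, 1.31 for Sdf2l1, 1.13 for Calr, 1.12 for Pdia3 and 1.06 for Manf, that is for the 9 genes called higher in immature neutrophils. A further 11 genes not called in either class alone gave 0.88 for Dnajb11, 0.78 for Selenos, 0.74 for Sel1l, 0.69 for Herpud1, 0.67 for Canx, 0.64 for Xbp1, 0.61 for Hsp90b1, 0.60 for Sec61b, 0.57 for P4hb, 0.54 for Derl1 and 0.49 for Dnajc3. Asns gave -1.24.

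Mature neutrophils minus granulocyte-monocyte progenitors gave 1.57 for Creld2, 0.97 for Hspa5, 0.85 for Pdia3, 0.81 for Dnajb11 and 0.75 for Dnajc3. Mature neutrophils minus erythroid progenitors gave 1.04 for Creld2 and -0.90 for Asns. All 3 pairs of classes share the same 3 libraries, so these values are not independent of each other, and with no library block 0 genes were called in each pair.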

How the results depend on the processing

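No paired analysis was possible because the wild type has 1 library, and the labels give no replicate numbers (those used here follow the order of the libraries and only name them). Counts under other settings are given here without the share of all genes called in the same setting, so they show only how the member calls moved. Against 18 called class and gene pairs, the DESeq2 test gave 1, clustering without called genes 10 and keeping doublets 7. In immature neutrophils, against 10, the DESeq2 test gave 1, members kept in the clustering 2, clustering without called genes 3 and doublets kept 3. In granulocyte-monocyte progenitors, against 0, no filter gave 3. In pre-B to mature B cells, against 5, members kept in the clustering gave 2, and 0 were called with no filter, by the DESeq2 test, without gated cells, at Leiden resolution 2, clustered without called genes and in cells of the same class at both resolutions; there Xbp1 turned from -1.29 to 0.17 without gated cells, 0.64 at Leiden resolution 2, 0.34 clustered without called genes and 0.59 in cells of the same class. In basophils, against 2, the DESeq2 test gave 0, Leiden resolution 2 gave 4, members kept gave 8, and no filter and leaving out immunoglobulin, haemoglobin, ribosomal and mitochondrial genes gave 7 each. In mature neutrophils, against 1, no filter, equal cell numbers and cells of the same class gave 2, Leiden resolution 2 gave 3, and the DESeq2 test, clustering without called genes and the stricter cell filter gave 0.

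The effect difference of mature neutrophils and erythroid progenitors went from 2 to 0 with no library block, with members kept, clustered without called genes and with doublets kept. That of mature neutrophils and granulocyte-monocyte progenitors went from 5 to 0 with no block, to 3 with DESeq2 size factors, members kept and clustering without called genes, and to 2 with doublets kept. That of immature neutrophils and the same progenitors went from 21 to 0 with no block and was 20 to 24 otherwise. The causes were not tested. Over the 28 called values, alternatives with a test kept direction and call in 203 cases, lost the call in 73 and reversed in the 4 of Xbp1. Leaving out a fusion library leaves 1 against 1, with no test: Hspa5 in immature neutrophils was then 1.14 and 1.27, and Derl3 in B cells -1.25 and -8.15, where fusion replicate 1 holds 0 of its UMIs, so that -8.15 is no bound. Depth limits Derl3, Trib3 and Chac1, which have few UMIs in most classes.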
